A study of Mus musculus with 4 samples.

Results

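The mRNAs described here encode the parts of the spliceosome and the serine and arginine rich (SR) proteins, as mapped for binding by the RNA acetyltransferase NAT10 in mouse 32D cells. Members were chosen by gene symbol alone: Srsf, Sf3a, Sf3b, Snrp, U2af, Prpf and Snrnp symbols with Sf1, Srrm1, Srrm2, Tra2a and Tra2b, leaving out the U1 gene Snrnp70. The rule was set with earlier results of these data known. It found 60 genes in the RefSeq gene table, 59 of them protein-coding and 1 the pseudogene Snrpert. Of these, 20 genes had a listed NAT10 peak, of 1626 gene symbols with a peak in the whole list. They carried 74 of the 4172 distinct peaks.

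NAT10 places N4-acetylcytidine (ac4C) on RNA, and the series was made to find mRNA sites under direct binding by it, with its part in blood stem cells in view. The assay was eCLIP, in which ultraviolet light (254 nm, 150 mJ) crosslinks protein to RNA, the protein is pulled down with its antibody and the RNA that comes along is sequenced. There were 2 NAT10 immunoprecipitates and 2 inputs made without antibody. All 4 libraries came from wild-type 32D cells, a line that the labels place in mouse bone marrow, grown with interleukin-3 at 10 ng/mL. The labels do not tell whether replicates were separate cultures. A single peak list covers all libraries together, so no value per library and no spread between replicates can be given.

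Each peak has 2 values, both the authors' own: a fold, read here as log2 of immunoprecipitate over input, and a p, read as -log10 p. Each peak also has 1 class, again the authors': 3' UTR, exon or 5' UTR. The list holds no peak under a log2 fold of 3.00 or a -log10 p of 3.07, so weaker binding is not seen, and a gene without a listed peak is not shown to be unbound. A peak needs enough RNA to be called, and the level of each mRNA in 32D cells was not used here. Its part in which genes have a peak was not tested. Of the genes listed as myeloid and mast cell markers 5 of 10 had a peak (Ptprc, Csf2rb, Srgn, Prtn3 and Gata2). Csf2rb2, Mpo, Elane, Ctsg and Spi1 had none. The counts were 0 of 6 for lymphoid and 0 of 4 for erythroid markers, beside 7.33% of all protein-coding genes. At such a share, 0 of so few genes says little. A peak list is no table of expression, so these counts are only a rough check of the cell line.

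Splicing removes introns in steps that separate sets of proteins carry out. The U1 and U2 particles mark the ends of the intron, the U4/U6.U5 tri-snRNP joins them and the assembly is then rearranged to cut and join the RNA, while the Sm ring forms the core of most of these particles. SR proteins bind exons, recruit U1 and U2 and so help decide which exons are kept. Many SR genes limit their own output through alternative exons that bring in an early stop codon, or through introns of the 3' UTR, and send such transcripts to decay. SRSF2, SF3B1 and U2AF1 are among the genes most often mutated in human myelodysplastic syndromes, diseases of blood stem cells.

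Among the members, more mRNAs of SR and SR-like proteins than of the spliceosome's core had a listed peak. Of the 74 peaks 51 were on SR, Tra2 and SRm mRNAs and 23 on the other roles. Srrm2 alone had 18 of the 51, and without it 33 were left. Snrnp70, the U1 gene that the rule leaves out, had 25 peaks, so the split by peaks depends on the rule and on Srrm2. Of the SR proteins 8 of 11 had a peak, and of the Tra2 and SRm proteins 4 of 4. In all other roles together 8 of 45 members had one (17.8%), against 12 of 15 (80%) for the SR, Tra2 and SRm proteins. The share over all 60 members was 33.3%, beside 7.33% of the 21900 protein-coding genes in the RefSeq table. With only peaks above the list's median log2 fold of 4.60 counted, 7 of the 15 and 4 of the 45 were left, 11 members in all, beside 3.93% of protein-coding genes. With a -log10 p of at least 5 asked, 7 of the 15 and 5 of the 45 were left, 12 in all, beside 4.08%. The SR group and the other roles thus kept the same order under both demands, and the difference between them was not tested, since genes are not replicates.

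**Figure D1:**
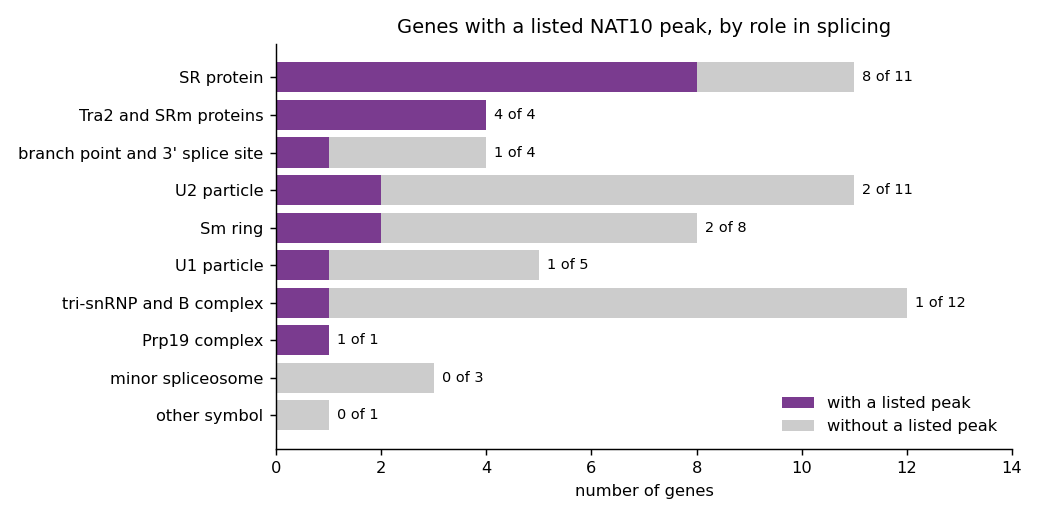
Members with a listed NAT10 peak (purple) and without one (grey) in each splicing role, as numbers of genes. SR proteins have a peak in 8 of 11 genes, Tra2 and SRm proteins in 4 of 4, and the tri-snRNP and B complex in 1 of 12.

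Among the SR proteins Srsf2, which binds exonic enhancers and acts in the nucleus, had the strongest peak. Its 5 peaks had log2 folds of 4.12 in an exon and 5.19, 6.12, 5.10 and 5.06 in the 3' UTR, in the order of the transcript. The strongest lay on chromosome 11, 116741347 to 116741468 (GRCm39, minus strand), with a fold of 69.6 and a -log10 p of 15.4. All 4 of its 3' UTR peaks fell within 486 nt, and each exceeded the exon peak of the same gene.

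Srsf1, the founding SR protein and a shuttling factor that also acts in translation, had 5 peaks, all of them in the 3' UTR. Their log2 folds were 5.08, 4.60, 4.65, 5.50 and 5.61 from the 5' to the 3' end. They formed a pair and a group of 3 over 1892 nt, with a gap of 996 nt between. The strongest was the last one, on chromosome 11, 87942324 to 87942400 (plus strand), with a -log10 p of 10.9.

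Srsf6, known for control of exon choice in several tissues, likewise had 3' UTR peaks alone. Its 4 peaks had log2 folds of 4.31, 5.36, 4.69 and 4.50 within 881 nt, the strongest on chromosome 2, 162776884 to 162776997. This stretch was shorter than the 1892 nt of Srsf1, which holds 1 gap of 996 nt. The other gaps of Srsf1, 145 to 165 nt, fell within the range of those in Srsf6 (24 to 322 nt).

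Srsf5, another SR protein that acts through exonic enhancers, had the same highest fold in an exon and in its 3' UTR. Its exon peaks had log2 folds of 4.26, 4.58 and 5.63, and its 3' UTR peaks 5.63 and 4.66. The 2 strongest peaks had the same fold and the same -log10 p of 10.9, on chromosome 12 at 80995650 to 80995764 in an exon and 80996955 to 80997149 in the 3' UTR. The 3' UTR peak, at 195 nt, was the widest of all 74 member peaks.

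Srsf3, the smallest SR protein and a factor in mRNA export, had 5 weaker peaks. They had log2 folds of 4.41 and 4.05 in exons and 4.60, 4.05 and 4.44 in the 3' UTR, the strongest on chromosome 17, 29260184 to 29260267. None of its peaks lay above the list's median of 4.60. A processed copy of this gene, Srsf3-ps, is in the RefSeq table, so reads may fit both places; how the authors assigned them: not given in the sources used here.

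Srsf7, a close relative of Srsf3, had 2 peaks in the 3' UTR class with log2 folds of 4.23 and 4.12. They lay 3275 nt apart on chromosome 17, the stronger at 80512221 to 80512262. Srsf10, an SR protein that represses splicing when it loses its phosphates, had 1 peak of 4.84 in its 3' UTR on chromosome 4, 135595840 to 135595992. Srsf9, a close relative of Srsf1, had 1 of 4.32, also in the 3' UTR, on chromosome 5, 115470889 to 115470945. Srsf4, Srsf11 and Srsf12 had no listed peak. All 8 bound SR mRNAs therefore had a peak that the authors class as 3' UTR, and 3 of them (Srsf2, Srsf3 and Srsf5) had an exon peak as well. Over the whole list 70.5% of genes with a peak had one in the 3' UTR.

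**Figure D2:**
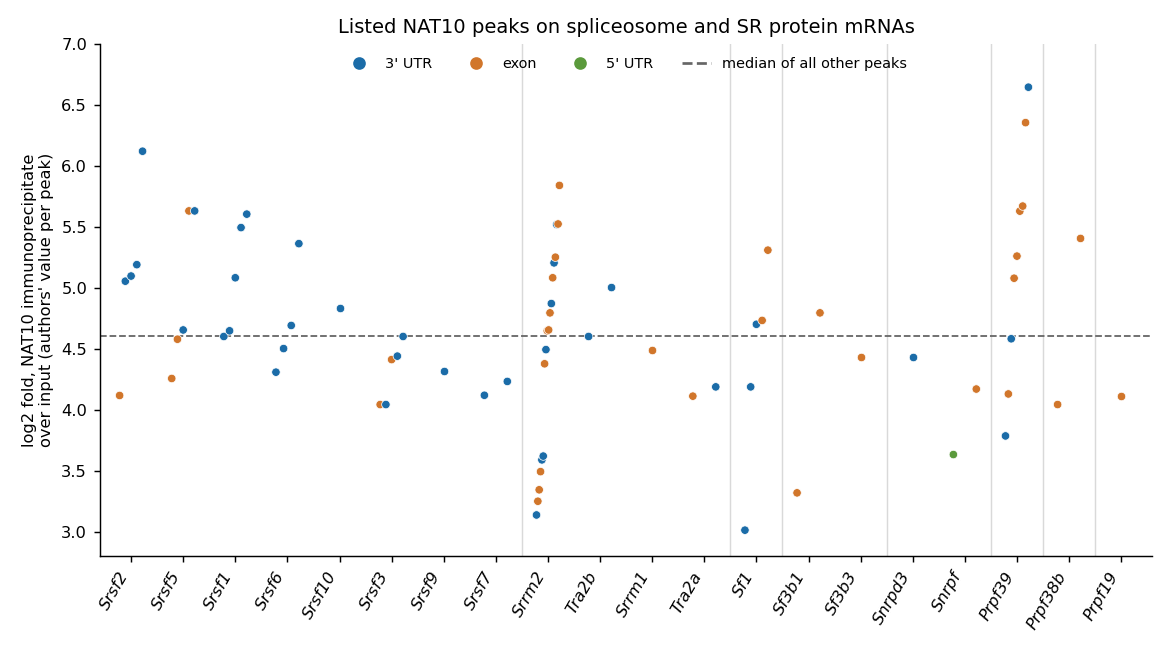
Log2 fold of NAT10 immunoprecipitate over input for each of the 74 listed peaks, 1 point a peak, on the 20 members with a peak, grouped by role (SR proteins, Tra2 and SRm proteins, Sf1, U2, Sm ring, U1, Prpf38b, Prpf19), with colour for the authors' class of the peak. The dashed line is the median of all other peaks in the list (4.60). The highest points belong to Prpf39 and Srsf2, and Srrm2 has the most points.

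The genes of the Tra2 proteins, SR-like activators of exon inclusion, differed in the folds of their listed peaks. Tra2b had 2 peaks in its 3' UTR with log2 folds of 5.0 and 4.60 within 239 nt on chromosome 16, the stronger at 22077758 to 22077878. Tra2a had a peak of 4.11 in an exon and one of 4.19 in the 3' UTR, more than 17 kb apart in the genome (span of 17984 nt from the first to the last peak base). Both Tra2a peaks lay under the list's median fold.

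Srrm2, a large scaffold protein of nuclear speckles, had 18 peaks in 11 separate regions, the most of any member and rank 8 among all genes. The log2 folds ran from 3.14 to 5.84, with a median of 4.65. The strongest was an exon peak on chromosome 17, 24042990 to 24043047, with a -log10 p of 12.8. Its peaks covered 1197 nt of a stretch of 12581 nt.

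The classes of Srrm2 do not follow the order of a single transcript. The authors put 11 of its peaks in exons and 7 in the 3' UTR, and the 3' UTR pieces lay among the exon pieces, from the first listed base of the gene to the last. Some pieces of different class touched each other. Of the 7 members with peaks in both classes, Srrm2 was the one with an exon peak downstream of a 3' UTR peak, beside 24 of 260 such genes in the rest of the list (9.23%). This order cannot be checked in members with peaks of 1 class alone, such as Srsf7, whose 2 peaks classed as 3' UTR spanned 3392 nt. The 3' UTR count of Srrm2 was therefore read with caution, and the shares by class are given below with and without this gene. Its partner Srrm1, which joins SR proteins to the exon, had 1 exon peak of 4.50 on chromosome 4, 135065177 to 135065286.

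**Figure D3:**
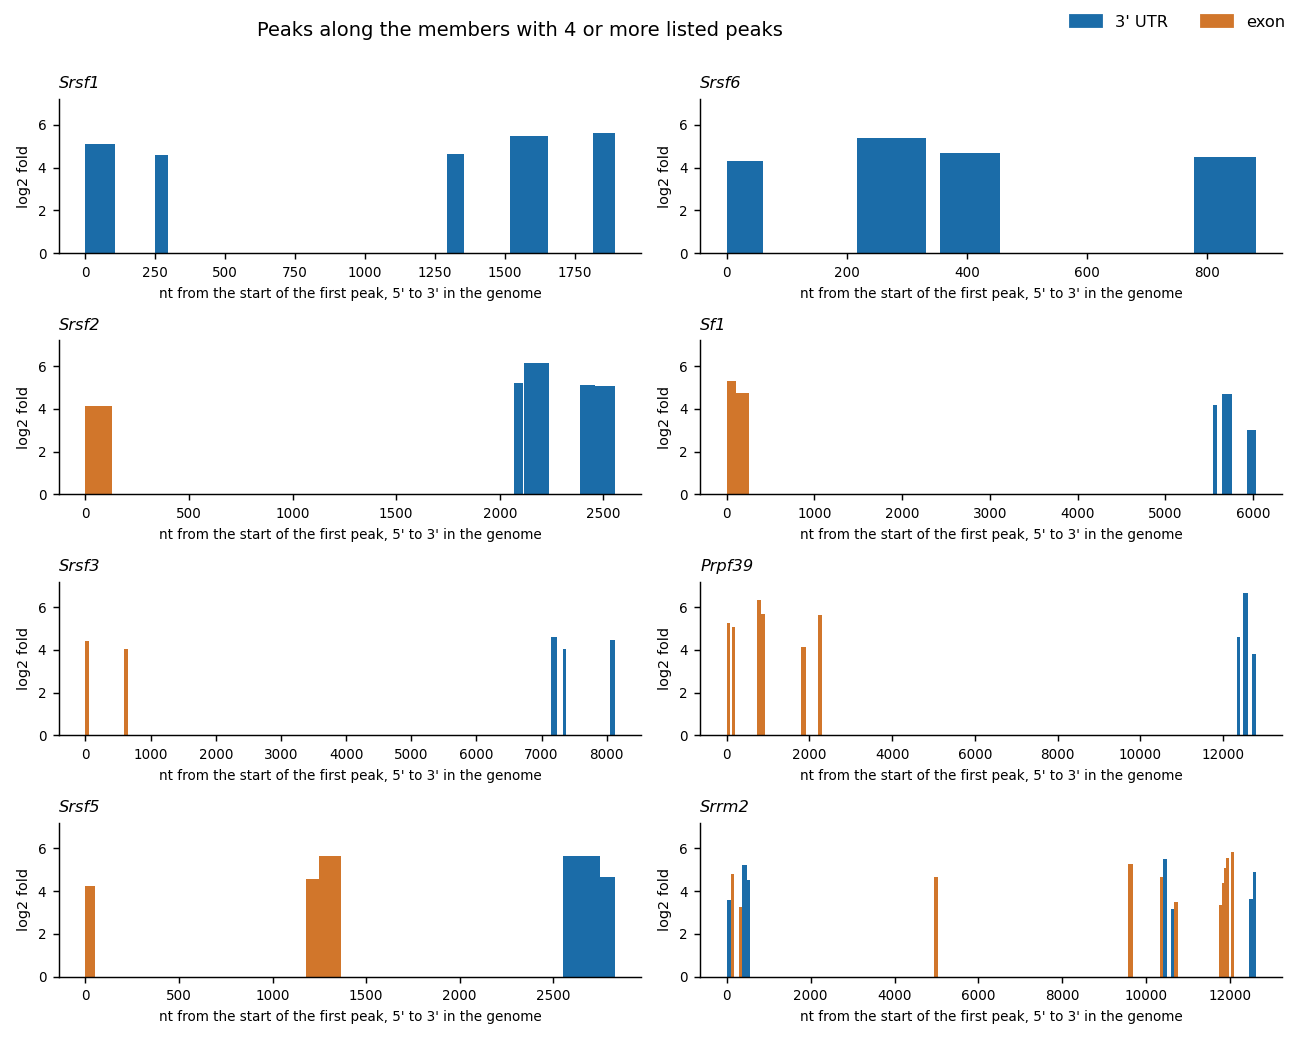
Listed peaks along the 8 members with 4 or more of them. The horizontal axis is the distance in nt from the start of the first peak, 5' to 3' along the gene in the genome with introns included, and differs in scale between panels; bar height is the log2 fold, and narrow peaks are drawn at a minimum width. Srsf1 and Srsf6 have 3' UTR peaks alone, while in Srrm2 the 2 classes alternate over 12581 nt.

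Prpf39, a protein known to work with the U1 particle at the 5' splice site, had the strongest peak of all members. Its 6 exon peaks had log2 folds of 5.26, 5.08, 6.36, 5.67, 4.13 and 5.63 within 2261 nt, and its 3 peaks in the 3' UTR had 4.58, 6.65 and 3.79 within 458 nt. The top peak, on chromosome 12, 65108472 to 65108595 (plus strand), was 100.1-fold over input with a -log10 p of 20.4. It ranked 116 of 1626 genes by its strongest peak, and Srsf2 followed at rank 194. Among the U1 members without a listed peak were Snrpa, Snrpc and Prpf40b. Snrnp70, the U1 protein that the rule leaves out, had 25 peaks and a strongest log2 fold of 6.64, close to that of Prpf39.

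Sf1 recognises the branch point of the intron before U2 takes its place. It had exon peaks of 5.31 and 4.73 that lay 1 nt apart and 3' UTR peaks of 4.19, 4.70 and 3.02, the strongest on chromosome 19, 6421080 to 6421184. Its last peak was among the weakest in the list, whose lowest log2 fold is 3.00. U2af1, U2af2 and U2af1l4, which read the 3' splice site beside it, had no listed peak.

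Of the U2 particle 2 of 11 members had peaks, both in exons alone. Sf3b1, which clamps the branch point, had peaks of 4.80 and 3.32 on chromosome 1, the stronger at 55039986 to 55040093. Sf3b3, a scaffold of the same SF3B complex, had 1 of 4.43 on chromosome 8. The remaining members, Sf3a1, Sf3a2, Sf3a3, Sf3b2, Sf3b4, Sf3b5, Sf3b6, Snrpa1 and Snrpb2, had none.

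Of the Sm ring 2 of 8 members had peaks. Snrpd3 had 1 of 4.43 in its 3' UTR on chromosome 10, 75371199 to 75371284. Snrpf had 1 of 4.17 in an exon and 1 of 3.64 in the 5' UTR, the single 5' UTR peak among all 74. Over the list 9.29% of genes with a peak had one in the 5' UTR. Snrpb, Snrpd1, Snrpd2, Snrpe, Snrpg and Snrpn had no listed peak.

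The tri-snRNP and B complex had the lowest share among the roles with a listed peak, 1 of 12 members (8.33%). This is close to the 7.33% of all protein-coding genes, so the count marks nothing particular to this role. Prpf38b, related to the B complex protein Prpf38a, had exon peaks of 5.41 and 4.05, the stronger on chromosome 3, 108814239 to 108814319. No peak was listed for Prpf8, the protein at the catalytic centre, for the helicase Snrnp200, or for Prpf3, Prpf4, Prpf6, Prpf18, Prpf31, Prpf38a, Prpf4b, Snrnp27 and Snrnp40. Prpf19, the ubiquitin ligase of the complex named after it, had 1 exon peak of 4.11 on chromosome 19, 10874867 to 10874979. The minor spliceosome genes Snrnp25, Snrnp35 and Snrnp48 and the pseudogene Snrpert had none.

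In strength and width the member peaks were much like those of other genes. Their median log2 fold was 4.60 (interquartile range 4.18 to 5.17), against 4.60 (4.19 to 5.29) in the rest of the list. The median width was 82 nt for member peaks and 79 nt for the rest. By gene, the strongest peak had a median of 4.82 (4.40 to 5.46) over the 20 bound members and 4.69 (4.29 to 5.38) over 1606 other genes. The strongest member peak stood at 6.65. At the -log10 p ceiling of 400 there were 0 of 74 member peaks, against 34 of 4098 (0.83%) in the rest, a share so low that the 0 says nothing about the members.

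The median number of peaks per gene was 2 both for the bound members and for the other genes with a peak, and the shares at either end differed. Of the 20 bound members 7 had 5 or more peaks (35%), against 13.4% of the other genes, and 6 had a single one (30%), against 47.1%. Over separate regions, with touching peaks joined, 14 of the 20 had at least 2, beside 46.7% of all genes with a peak. The median genomic span in the RefSeq table was 14243 nt for bound members and 14361 nt for members without a peak, against 29334 nt for all protein-coding genes with a peak. The length of the mature mRNAs was not used here, and no test was run on these shares.

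By class, 39 member peaks lay in the 3' UTR (52.7%, exact 95% interval 40.7 to 64.4), against 57.7% (56.2 to 59.2) in the rest of the list. Exons held 34 (45.9%, 34.3 to 57.9), against 36.6% (35.1 to 38.1), and the 5' UTR held 1 (1.35%, 0.0342 to 7.30), against 5.76% (5.07 to 6.52). The intervals cover counting error only, and peaks of 1 gene are not independent. Without Srrm2 the 3' UTR held 57.1% of member peaks, exons 41.1% and the 5' UTR 1.79%. By gene, 14 of 20 bound members had a 3' UTR peak (70%), beside 70.5% of all genes with a peak, and 13 had an exon peak (65%), beside 43.3%. Both classes were present in 7 members (35%), against 16.2% of other genes. Peaks in the 3' UTR alone were listed for 7 members (35%), against 52.7% of other genes. Without Srrm2, 68.4% of bound members had a 3' UTR peak, 63.2% an exon peak, 31.6% both classes and 36.8% the 3' UTR alone. A gene with more peaks has more ways to hold an exon peak or both classes. Of the bound members 35% had 5 or more peaks, against 13.4% of other genes, and the shares by gene were not adjusted for this.

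The authors' class, which was not checked against transcript models, was then set beside the role. In the SR, Tra2 and SRm group 11 of 12 bound genes had a 3' UTR peak, Srrm1 being the exception, and 32 of the group's 51 peaks (62.7%) were of that class. Without Srrm2 these were 10 of 11 genes and 25 of 33 peaks (75.8%). In the other roles 3 of 8 bound genes (Prpf39, Sf1 and Snrpd3) had one, and 7 of 23 peaks (30.4%). Most of these 23 peaks were on Prpf39 (9) and Sf1 (5). Of all genes with a peak 70.5% had one in the 3' UTR, and of the peaks in the rest of the list 57.7% were of that class. The lengths of exons and untranslated regions were not used here, so placement by NAT10 and the length on offer cannot be told apart.

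**Figure D4:**
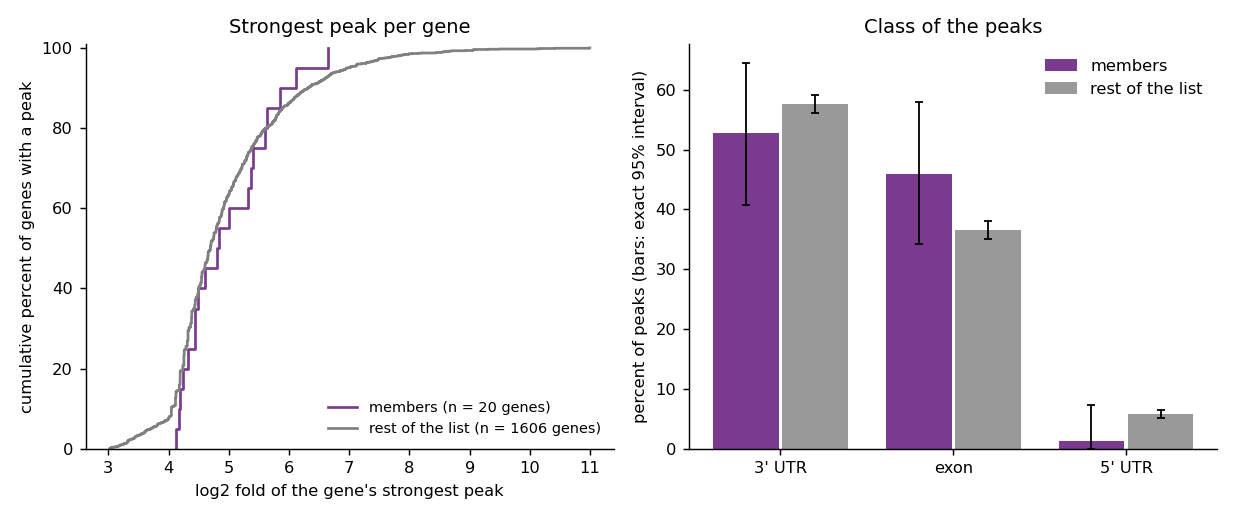
Left, cumulative percent of genes by the log2 fold of their strongest peak, for the 20 bound members (purple) and the 1606 other genes with a symbol and a peak (grey). Right, percent of peaks in each class for member peaks (purple, 74) and the rest (grey, 4098), with exact 95% intervals. The curves lie close together up to the top member at 6.65. The intervals overlap in every class (for the 3' UTR the shares are 52.7% and 57.7%).

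Other genes of the splicing pathway were counted in the same way. Of 84 other splicing genes in 6 lists 26 had a peak (31.0%), beside 7.33% of protein-coding genes. The lists were chosen with earlier results of these data known, so their share is a description only. Of the list of Prp19 and step factors, which also holds the tri-snRNP genes Eftud2, Txnl4a, Sart1 and Usp39, 0 of 18 had a peak. Of the exon junction proteins 1 of 9 had one, Sap18 (4.65, 5' UTR). Of the LSm genes, all but Lsm1 part of the core of the U6 particle, 2 of 8 had one, Lsm3 (4.38) and Lsm8 (4.68).

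The kinases that phosphorylate SR proteins had a peak in 4 of 7 genes. The strongest were Srpk1 (5.41, 3' UTR) and Clk1 (5.29, exon), each with 5 peaks, ahead of Srpk2 (4.44) and Clk4 (4.11). Of the helicases 4 of 12 had one: Ddx5 (6.32), Dhx15 (5.98), which takes the spent spliceosome apart, Ddx17 (5.93, 12 peaks) and Ddx39b (4.86, 9 peaks), a factor in mRNA export. Other regulators had a peak in 15 of 30 genes, with a median strongest peak of 5.32. Among these 30, Bclaf1 (5.98), the polypyrimidine tract protein gene Ptbp3 (5.63), Rbm39 (5.61) and Ewsr1 (5.58) had the strongest. Other examples were Rbm25 (5.50), Tial1 (5.47), Sfpq (5.47), Celf1 (5.32) and Tardbp (5.32). The lists leave out the hnRNP and muscleblind genes and Luc7l2. Some of these had higher peaks than Bclaf1, such as Mbnl2 (9.05) and Luc7l2 (6.66), and others had lower ones. Luc7l3 (4.91), Ptbp2 (4.89), Khdrbs1 (4.36), Son (4.36) and Celf2 (4.26) were lower. Against the 20 bound members (median 4.82), the 26 bound genes of these lists had a median strongest peak of 5.30.

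The values of many peaks may rest on few reads, though the list gives no read numbers. Of the member peaks 64 of 74 (86.5%) had a fold that fits a whole product of read numbers in the 2 immunoprecipitates, against 82.7% in the rest. The simplest reading is 1 input read in each library, but more input reads can give a whole product too. Srrm2 had a peak at a product of 143 with a -log10 p of 14.0, and Srsf3 one at 150 with 3.68. The reading is therefore not safe for every peak. If all were read this way, the geometric mean of reads per immunoprecipitate would have a median of 14.4 over these member peaks, from 5.48 to 57.5. The highest is the top peak of Prpf39, and the median in the rest would be 14.7. These are not counted reads: the smallest whole product that fits was taken, and larger ones may fit as well. The low end is doubtful, since a product of 30 (Srrm2) had a -log10 p of 3.32 and one of 90 (Srsf3) 3.27. Tra2b, Srsf1 and Srsf3 shared 1 log2 fold, 4.60, at 1 peak of each, 24.3-fold over input. Small differences in fold between such peaks may correspond to a few reads, so they give no order.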

How the data were processed

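Per the labels, NAT10 eCLIP libraries (2 immunoprecipitates, 2 inputs) were made from 32D cells. The authors deposited 1 peak list of 4206 rows (4172 distinct peaks) with no value per library, so no depth per library is given. Per the submitters' processing notes, the genome build is GRCm39. Aligner, peak caller and the way replicates were joined: not given in the sources used here. Per the file headers the deposited list has a fold column, which was read as log2, because 82.8% of values fit 0.5 times the log2 of a whole number plus a constant (within 0.001, and above 1000 within 0.001 for each 1000). The deposited p column was read as -log10 p, since it runs from 3.07 to 400.

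Positions count from 1. Of 1626 symbols, 1609 matched the RefSeq table (GRCm38.p6), by symbol or a synonym of 1 gene, used for names, types and spans alone; 5 rows had no symbol. Touching peaks of 1 gene were joined into regions. Intervals are exact (Clopper-Pearson, scipy 1.17.1, Python 3.11.15). No test was run: members are described by counts and medians beside the same over the list. Joining and read steps were checked on simulated peaks. The rule names every bound member and every bound gene of the other splicing lists; some genes in it are not reported here. The members and lists were chosen with earlier results of these data known. No sequence is shown, as no genome of the build was used here.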

Additional observations from a re-analysis of the deposited data

How the results depend on the processing

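Of 29 alternative values, 22 stayed within their limits (1.5 times for a count, the exact interval for a share, the spread between bound members for a median) and 7 moved. With peaks above the median log2 fold alone, there were 11 members with a peak, 36 peaks on them and 9 members with a 3' UTR peak, against 20, 74 and 14 as reported. With a -log10 p of at least 5 these were 12, 42 and 9. With 1 peak per gene 20 peaks were left. All of these follow from counting fewer peaks. The 3' UTR share ran from 47.6% to 57.1% over the alternatives, and the median strongest log2 fold from 4.80 to 5.41. With the median peak of each gene in place of the strongest, it was 4.55. Leaving out Srrm2 was added after the data were seen, as was the use of older gene names, which brought in Pnisr (5.72), Srek1 (5.90) and Scaf4 (4.15) and gave 23 members. No paired analysis was possible because the list holds no value per library, and for the same reason no replicate could be left out and immunoprecipitate against input was not tested. The missing read numbers per peak and the missing mRNA levels limit the comparison of members.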
